A study of Mus musculus with 64 samples.

Results

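Metallothioneins and a set of zinc and manganese transporters were followed in the brain of mice carrying the Arg87Cys change in *Cyfip2*. The group held 7 genes, the metallothioneins *Mt1*, *Mt2* and *Mt3*, the exporters *Slc30a1*, *Slc30a3* and *Slc30a10*, and the importer *Slc39a14*. They were chosen by name and located by Ensembl gene ID, and all 7 were among the 18432 genes of the deposited table. RNA was sequenced from the frontal cortex and the hippocampus of heterozygous knock-in mice (KI, 1 Arg87Cys copy and 1 wild-type copy of *Cyfip2*) and of their wild-type littermates (WT), all C57BL/6N mice. Age is given in weeks after birth (PWK), and mice were taken at PWK 1, 7, 14 or 28. Each of the 16 groups held 4 replicate libraries, 64 in all. The Arg87Cys change is known from patients with West syndrome, an infantile epilepsy, and *Cyfip2* encodes a subunit of the WAVE complex that regulates actin. The comparisons asked how expression differed between KI and WT at each age and whether that difference depended on region and age. The tissue was bulk, the study used both sexes, and the labels give no sex for a library. The sources used here do not say which libraries came from separate mice, or whether equal replicate numbers in the 2 regions mark the same mouse, so p-values measure the spread between these libraries, which may in part be technical.

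Metallothioneins are short, cysteine-rich proteins that bind zinc and copper and buffer the free metal in the cytosol. Transcription of *Mt1* and *Mt2* is induced by zinc through the metal-sensing factor MTF1, which binds metal response elements, and also by glucocorticoids and by cytokines that signal through STAT3; in brain both are largely astrocytic, whereas *Mt3* is a brain-enriched form that responds little to zinc. Zinc transporters of the SLC30 family move metal out of the cytosol, and those of the SLC39 family move it in. *Slc30a1* encodes the plasma membrane zinc exporter ZnT1, itself a target of MTF1. *Slc30a3* encodes ZnT3, which loads zinc into glutamatergic synaptic vesicles, *Slc30a10* encodes an exporter of manganese, and *Slc39a14* encodes ZIP14, an importer of zinc, iron and manganese that is induced by inflammation.

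The 3 metallothionein genes lie side by side on the plus strand of chromosome 8 (GRCm38), with *Mt3* at positions 94152607 to 94154146, *Mt2* at 94172664 to 94173568 and *Mt1* at 94179082 to 94180327. *Mt2* and *Mt1* are 5513 bases apart and *Mt3* lies 18517 bases before *Mt2*, so that the cluster spans 27721 bases. The coding sequences of *Mt1* and *Mt2* were identical at 148 of 186 aligned bases (79.6%), those of *Mt1* and *Mt3* at 137 of 207 (66.2%) and those of *Mt2* and *Mt3* at 140 of 207 (67.6%). No stretch of 31 bases was shared between the annotated transcripts of any pair, so reads of each gene could be told apart by sequence of that length. *Slc30a1* (191906767 to 191913247) and *Slc30a10* (185454848 to 185468762) lie on the plus strand of chromosome 1, *Slc30a3* on the minus strand of chromosome 5 (31086106 to 31108237) and *Slc39a14* on the minus strand of chromosome 14 (70303469 to 70351425).

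The sequences before the start sites of 5 members show how the matches to the metal response element are spread. They are the 250 bases before the RefSeq start (GRCm38.p6), all on the plus strand, at chr8:94178839-94179088 for *Mt1*, chr8:94172368-94172617 for *Mt2*, chr8:94152357-94152606 for *Mt3*, chr1:191906531-191906780 for *Slc30a1* and chr1:185454598-185454847 for *Slc30a10*. Capitals mark the core of the metal response element, TGCACNC or TGCGCNC on either strand, and the core of the antioxidant response element, TGACNNNGC on either strand.
Mt1: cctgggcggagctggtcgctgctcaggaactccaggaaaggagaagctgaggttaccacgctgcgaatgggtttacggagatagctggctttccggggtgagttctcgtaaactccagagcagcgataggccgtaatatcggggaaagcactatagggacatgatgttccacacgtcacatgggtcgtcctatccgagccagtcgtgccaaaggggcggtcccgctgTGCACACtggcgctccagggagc
Mt2: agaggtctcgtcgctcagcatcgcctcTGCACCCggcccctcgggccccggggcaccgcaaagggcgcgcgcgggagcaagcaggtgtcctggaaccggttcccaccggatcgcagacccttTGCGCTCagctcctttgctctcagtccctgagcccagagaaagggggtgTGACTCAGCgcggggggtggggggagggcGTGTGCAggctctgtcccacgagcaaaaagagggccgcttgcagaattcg
Mt3: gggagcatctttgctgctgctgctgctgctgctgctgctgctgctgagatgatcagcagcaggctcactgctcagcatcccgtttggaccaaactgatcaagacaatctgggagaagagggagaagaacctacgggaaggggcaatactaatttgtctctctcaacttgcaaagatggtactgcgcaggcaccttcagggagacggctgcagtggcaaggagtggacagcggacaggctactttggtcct
Slc30a1: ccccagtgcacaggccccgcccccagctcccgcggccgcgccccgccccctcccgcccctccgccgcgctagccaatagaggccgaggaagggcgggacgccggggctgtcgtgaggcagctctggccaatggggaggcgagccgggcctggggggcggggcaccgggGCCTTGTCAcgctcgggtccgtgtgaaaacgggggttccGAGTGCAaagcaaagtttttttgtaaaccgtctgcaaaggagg
Slc30a10: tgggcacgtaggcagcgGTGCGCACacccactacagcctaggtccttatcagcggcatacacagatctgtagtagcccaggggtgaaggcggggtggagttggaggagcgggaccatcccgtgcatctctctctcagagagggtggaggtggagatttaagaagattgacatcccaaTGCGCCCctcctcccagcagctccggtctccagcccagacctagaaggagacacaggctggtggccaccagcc
The matches were counted in windows that also held 50 bases after the start, and at least 1 metal response core was found in 25.7% of the 32851 promoter windows of all genes. Of the 7 members 6 matched a window, all but *Slc39a14*. *Mt2* held 4 metal cores, a number reached by 0.517% of windows, 3 before and 1 after the start. *Mt1* held 3, a number reached by 1.97% of windows, of which 1 lay before the start, at bases -23 to -17, and 2 after it. *Slc30a10* held 3 before the start, of which 2 overlap on opposite strands. *Slc30a1* held 1 before and 1 after the start, and at least 2 were found in 7.11% of windows. *Mt3* held 1, after the start and so outside the printed bases. *Slc30a3* has 2 RefSeq starts, with 1 metal core in one window and 0 in the other. An antioxidant core, found in 12.4% of windows, was present once in *Mt2* and once in *Slc30a1*, in neither case overlapping a metal core. A match describes the letters of the window and is not evidence of binding. Cores outside these windows were not counted, so the numbers depend on the RefSeq start and do not rank whole promoters.

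Values are normalized counts, that is, estimated reads per gene divided by a factor for each library's depth, and library totals ran from 29225576 to 32601227. The tissue labels were checked with marker genes of each region. *Prox1*, *Dsp*, *C1ql2* and *Fibcd1* had higher medians in hippocampus, and *Tbr1*, *Rorb*, *Cux2* and *Lamp5* higher medians in cortex, while *Fezf2* did not. *Cyfip2* had a median of 27528 normalized counts in the 32 KI libraries (15311 to 38975) and 31107 in the 32 WT libraries (14909 to 44053); the knock-in changes 1 codon, so the level of the gene does not check the genotype. One library stood apart, the hippocampus of KI replicate 1 at PWK 14. Its astrocyte marker *Gfap* was at 131431 normalized counts, against 40059 to 47169 in the other 3 KI libraries, and its microglial markers summed to 33606, against 11176 to 16417. Results that rest on this hippocampus library are given with and without it. The cortex of KI replicate 1 at PWK 14 also had the highest *Gfap* of its group, at 12404 against 4322 to 5221. Its *Slc39a14* was the highest of its group too, at 1352 against 886 to 1067, while its microglial sum, 11466, was the lowest. Differences below are on the log2(normalized count + 1) scale, from limma fitted over all genes, and a gene was called where its Benjamini-Hochberg adjusted p was under 0.05. How many of all genes had groups that did not overlap was not counted, so a lack of overlap describes only the gene named.

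In WT brain the metallothioneins were the most abundant of the 7 genes per base of transcript at every age from PWK 7. In cortex at PWK 1 *Mt3* led, at 2284 ± 209 normalized counts per kilobase (SD, n = 4), followed by *Slc30a3* at 1360.3 ± 226 and *Mt1* at 612 ± 86.9. *Mt2* (467 ± 27.8), *Slc30a10* (264 ± 21.3), *Slc30a1* (174 ± 8.58) and *Slc39a14* (151 ± 7.06) came after them, and no neighbours in this order overlapped. At PWK 7 in cortex *Mt3* was at 5221 ± 416 and *Mt1* at 4881 ± 414 per kilobase, and their libraries overlapped there and at both later ages. *Mt2* came next at 3082 ± 85.2, then *Slc30a3* at 1929 ± 60.3, with no overlap between neighbours. *Slc39a14* (205 to 232) and *Slc30a1* (203 to 229) overlapped, and *Slc30a10* was last at 142 ± 9.19. The order from PWK 7 was the same in hippocampus, where at PWK 28 *Mt3* stood at 8311 ± 675, *Mt1* at 7362 ± 665, *Mt2* at 5915 ± 445 and *Slc30a3* at 1031 ± 37.5 per kilobase. In hippocampus the ranges of *Mt3* and *Mt1* overlapped from PWK 7 on, and those of *Slc39a14* and *Slc30a1* did not. At PWK 1 in hippocampus *Mt1* (1385 ± 125) overlapped *Mt2* (1199 ± 151), and *Slc30a1* (188 ± 11.1) overlapped *Slc39a14* (184 ± 12.6).

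**Figure D1:**
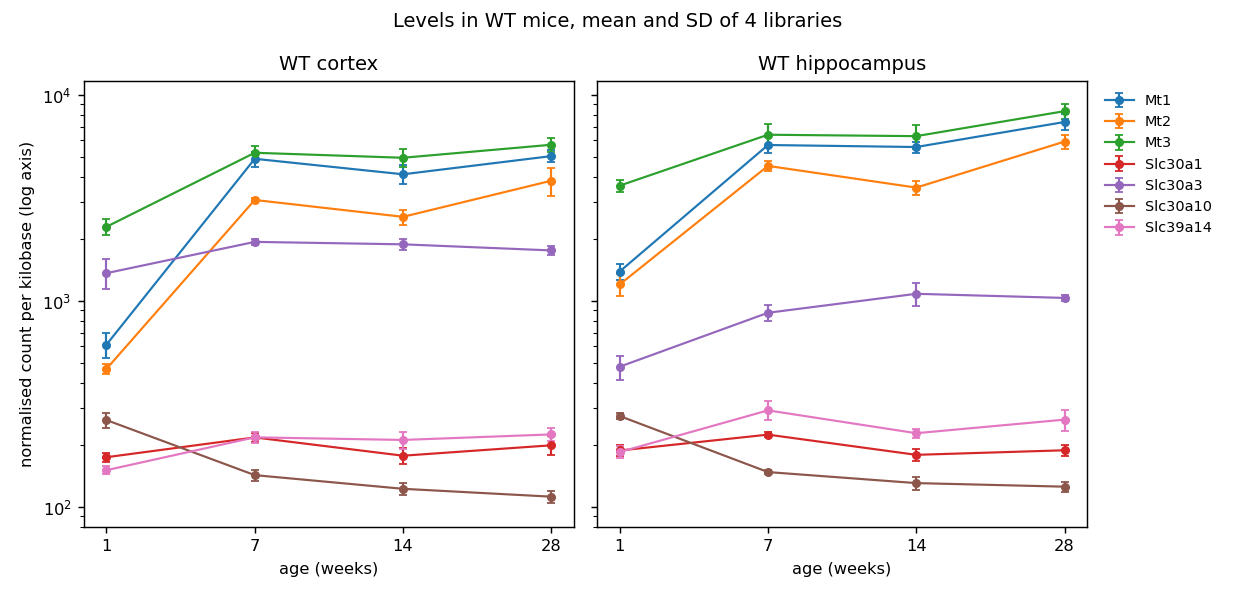
WT level of each of the 7 genes in normalized counts per kilobase of transcript (y axis, log scale) at PWK 1, 7, 14 and 28 (x axis), in cortex and hippocampus. Points are means and bars SDs of 4 libraries; Mt1 and Mt2 climb between PWK 1 and 7 to just below Mt3, while Slc30a10 falls to the bottom of the order.

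Between PWK 1 and PWK 7 every member changed in WT tissue of both regions, where 65.3% of all genes were called in cortex and 61.3% in hippocampus. The labels name no processing batch, so age and the day of processing cannot be told apart in any WT comparison of ages. *Mt1* rose from 397, 283, 345 and 319 normalized counts in the 4 cortex libraries at PWK 1 to 2481, 3005, 2641 and 2591 at PWK 7. That is a log2 difference of 3.00, SE 0.096, adjusted p = 2.55e-10, or 7.99-fold, and in hippocampus the difference was 2.04, SE 0.077, adjusted p = 2.54e-09. At PWK 1 the hippocampus libraries already stood at 700.3 to 820.4. *Mt2* rose by 2.72 in cortex and 1.92 in hippocampus, and *Mt3*, the brain-enriched form, by 1.19 and 0.81. Among the transporters the vesicular *Slc30a3* rose by 0.52 in cortex and 0.87 in hippocampus, *Slc39a14* by 0.53 and 0.67, and *Slc30a1* by 0.32 and 0.26. *Slc30a10* was the one that fell, by 0.89 in cortex, from 1691, 1582, 1469 and 1409.6 to 880.4, 845, 755 and 845 normalized counts, and by 0.90 in hippocampus. The 7 genes had groups that did not overlap in both regions, and the largest adjusted p was 0.00159, for *Slc30a1* in hippocampus.

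Later changes in WT tissue were smaller and fewer. From PWK 7 to PWK 14, 5.32% of genes were called in cortex and 1.99% in hippocampus, against 2 and 3 of the 7 members, all lower at PWK 14. *Mt2* fell by 0.27 in cortex and 0.35 in hippocampus (adjusted p = 0.0231 and 0.028), and *Slc30a1* by 0.30 and 0.33 (adjusted p = 0.0262 and 0.0211). *Slc39a14* fell by 0.36 in hippocampus (adjusted p = 0.0384). Both counts fell to 0 on leaving out 1 library, in cortex the PWK 14 replicate 1 or the PWK 7 replicate 1 or 3, and in hippocampus the PWK 14 replicate 1 or the PWK 7 replicate 1 or 4. From PWK 14 to PWK 28, 12.0% of genes were called in cortex and 8.11% in hippocampus. *Mt1* and *Mt2* rose again in both regions over this interval. *Mt2* rose by 0.57 in cortex and 0.74 in hippocampus (adjusted p = 0.00457 and 0.000551), from 1780.4, 1959, 1873 and 1618 to 2825, 2999, 3347 and 2919.5 normalized counts in hippocampus. *Mt1* rose by 0.30 and 0.40 (adjusted p = 0.0268 and 0.0078), and *Mt3* by 0.41 in hippocampus (adjusted p = 0.0199), while its difference in cortex was 0.21, adjusted p = 0.0861. The calls of *Mt2* held in all 8 fits that each left out 1 library and that of *Mt1* in hippocampus too, while *Mt1* in cortex was called in 3 of the 8 and *Mt3* in hippocampus in 6. No transporter was called in this interval.

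WT hippocampus held more metallothionein RNA and less *Slc30a3* RNA than WT cortex at every age. Of all genes, 34.7%, 40.8%, 34.6% and 37.8% were called between the regions at PWK 1, 7, 14 and 28, against 5, 5, 4 and 5 of the 7 members. The excess of *Mt2* in hippocampus was a log2 difference of 1.35 at PWK 1 and 0.55, 0.47 and 0.64 at the later ages. For *Mt1* it was 1.18, 0.22, 0.44 and 0.55, and for *Mt3* 0.66, 0.29, 0.34 and 0.54. The vesicular transporter *Slc30a3* went the other way, with log2 differences of -1.50, -1.15, -0.80 and -0.76. At PWK 1 its cortex libraries held 2269.6, 2907, 3417 and 2773 normalized counts and its hippocampus libraries 1109, 816, 1084 and 987. The largest adjusted p among these 16 calls was 0.0272, for *Mt1* at PWK 7, a call that 4 of the 8 fits without 1 library kept. *Slc39a14* was higher in hippocampus at PWK 1, 7 and 28 (log2 differences 0.29, 0.43 and 0.23) and was not called at PWK 14 (log2 difference 0.11, adjusted p = 0.263); the call at PWK 28 was kept in 2 of the 8 fits without 1 library. *Slc30a1* and *Slc30a10* were not called between regions at any age, and their log2 differences ran from -0.076 to 0.16.

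At PWK 1 and 7 no difference between KI and WT passed the test for any of the 7 genes. At PWK 1, 0.00546% of genes were called between KI and WT in cortex and 0.0109% in hippocampus, and at PWK 7 0.00545% and 0.0218%. None of the 7 members was called by limma in these 4 comparisons, while 0, 2, 3 and 2 of them had an unadjusted p under 0.05, in cortex and hippocampus at PWK 1 and in cortex and hippocampus at PWK 7 in turn. The shares of all genes with such a p were 5.27%, 5.46%, 8.05% and 6.22% in the same order. The 95% intervals bound what could have gone unseen. For *Mt1* the interval of the log2 difference was -0.23 to 0.26 in cortex and 0.013 to 0.38 in hippocampus at PWK 1, and -0.35 to -0.024 and -0.36 to -0.029 at PWK 7. *Mt2* at PWK 7 in hippocampus was at 1835, 2076, 1999 and 1873 normalized counts in KI and 2221, 2500.0, 2292 and 2204 in WT, groups that did not overlap (log2 difference -0.24, SE 0.059, adjusted p = 0.529). *Slc30a3* at PWK 7 in cortex was at 3325, 3617, 3419 and 3572 in KI and 3949, 3909, 4186 and 4077 in WT, also apart (log2 difference -0.21, SE 0.042, adjusted p = 0.14). *Slc39a14* at PWK 1 in hippocampus was at 1178, 1016, 1024 and 1086 in KI and 827, 913, 915 and 978 in WT (log2 difference 0.24, SE 0.065, adjusted p = 0.808). All 7 differences were negative in hippocampus at PWK 7, between -0.24 and -0.045, where the median of all genes was -0.0019.

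At PWK 14 the metallothioneins *Mt1* and *Mt2* stood higher in every KI hippocampus than in any WT hippocampus. *Mt2* was at 9447, 2727, 3839.5 and 3274 normalized counts in the 4 KI libraries and 1780.4, 1959, 1873 and 1618 in the 4 WT libraries. It rose by 1.23 on the log2 scale (SE 0.32, adjusted p = 0.0307), or 2.35-fold. KI replicate 1 stood well above the other 3 KI libraries, all of which lay above every WT library. *Mt1* was at 10406, 3662, 4769.7 and 4441 in KI and 2868, 3322, 3016 and 3019 in WT, a difference of 0.80, SE 0.27, adjusted p = 0.0715. *Mt3* was at 5864, 3447, 3679 and 3606 in KI and 3319, 3960.1, 2892 and 3305 in WT, and its groups overlapped (log2 difference 0.27, SE 0.17, adjusted p = 0.291). In hippocampus at PWK 14, 15.6% of all genes were called, and 3 of the 7 members: *Mt2*, *Slc39a14* and *Slc30a10*.

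**Figure D2:**
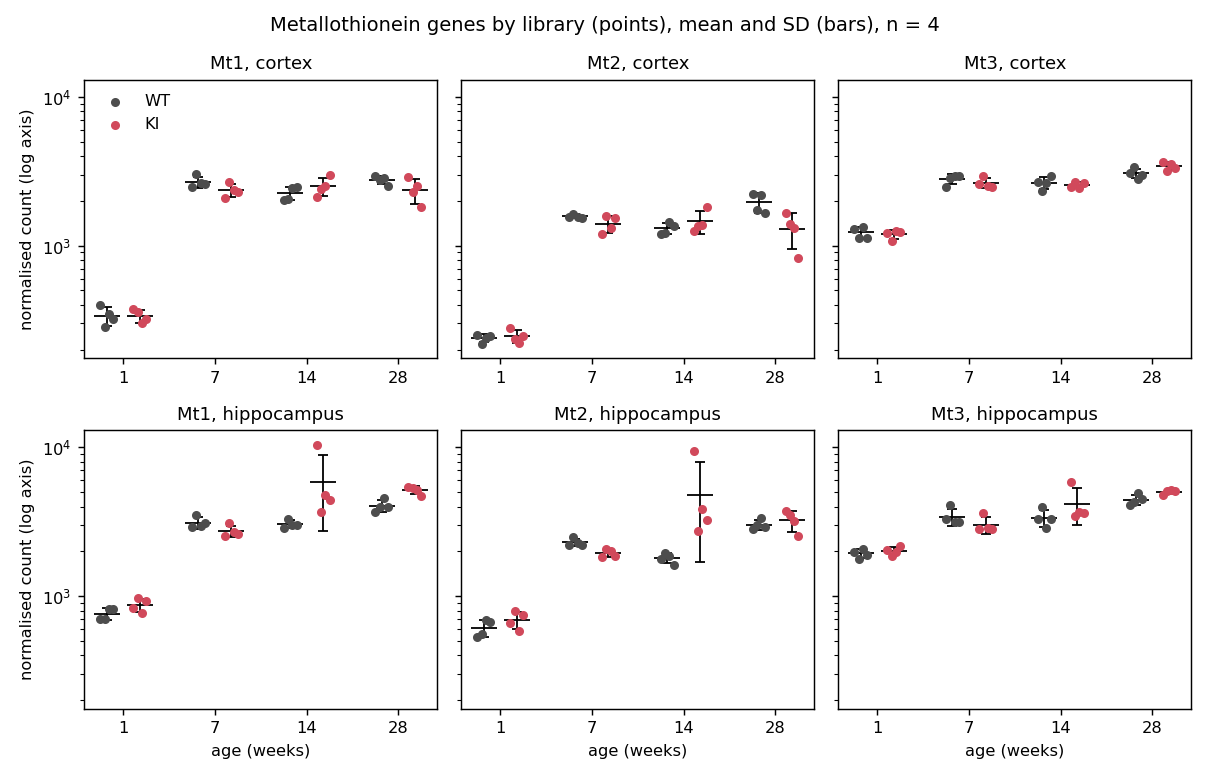
Normalized counts (y axis, log scale) of Mt1, Mt2 and Mt3 in each of the 64 libraries by age (x axis, PWK), cortex above and hippocampus below, with KI and WT points side by side and lines at the group means. In hippocampus at PWK 14 KI replicate 1 reaches 10406 for Mt1 and 9447 for Mt2, and the other 3 KI points still lie above the 4 WT points.

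Leaving out the PWK 14 hippocampus of KI replicate 1 lowered the size of the metallothionein differences and narrowed their spread. With 3 KI and 4 WT libraries the log2 difference of *Mt2* was 0.85, adjusted p = 0.00129, that of *Mt1* was 0.48, adjusted p = 0.00709 and that of *Mt3* was 0.095, adjusted p = 0.528. *Mt1* was thus called without this library and not with it, and 5 of the 7 members were called, where 17.4% of all genes were. Summing *Mt1* and *Mt2* to 1 value per library gave a difference of 0.98 (adjusted p = 0.0490) with all libraries. The call of *Mt2* did not survive the removal of KI replicate 3 or of any 1 of the 4 WT libraries, with adjusted p between 0.0577 and 0.0832, while its log2 difference stayed between 1.18 and 1.28.

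At PWK 28 *Mt1* was higher in KI hippocampus, and *Mt2* was lower in KI cortex. *Mt1* in hippocampus was at 5403, 5367, 5209.6 and 4745 normalized counts in KI and 3658, 3981, 4538 and 3990.4 in WT, with no overlap. It rose by 0.36 on the log2 scale (SE 0.067, adjusted p = 0.00457), or 1.28-fold. *Mt2* was not called there, at 3728, 3498, 3209 and 2527 in KI and 2825, 2999, 3347 and 2919.5 in WT (log2 difference 0.088, SE 0.10, adjusted p = 0.621). *Mt3* was at 4800.3, 5126, 5159.6 and 5095 in KI and 4074, 4307, 4926 and 4512 in WT (log2 difference 0.18, SE 0.058, adjusted p = 0.055). In cortex *Mt2* was then at 1658, 1401, 1314 and 831 in KI and 2218, 1746, 2200.0 and 1646 in WT. It fell by 0.62 (SE 0.19, adjusted p = 0.0385) although 1 KI library lay inside the WT range, and the call was lost without KI replicate 3 or WT replicate 1, 2 or 3 (adjusted p between 0.0610 and 0.105). *Mt1* in cortex was at 2880.2, 2273, 2509 and 1803 in KI and 2923, 2760.1, 2863 and 2499 in WT (log2 difference -0.24, SE 0.12, adjusted p = 0.187), and *Mt3* at 3641, 3161, 3505 and 3326 and 3076, 3369.7, 2819 and 2978 (log2 difference 0.16, SE 0.069, adjusted p = 0.132). Of all genes, 22.2% were called in cortex and 15.8% in hippocampus at PWK 28, against 2 of the 7 members in each. In cortex at PWK 14, where 5.18% of genes were called, the metallothionein differences were 0.15 for *Mt1*, 0.14 for *Mt2* and -0.048 for *Mt3*, with adjusted p of 0.477, 0.507 and 0.771.

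The balance among the metallothioneins was also read within each library, where a factor common to the library cancels. *Mt2* made up 44.3% ± 2.38 (SD, n = 4) of the sum of *Mt1* and *Mt2* in KI hippocampus at PWK 14 and 37.1% ± 1.61 in WT. At PWK 28 the order was the other way, 38.3% ± 2.61 in KI and 42.8% ± 0.591 in WT, and in cortex at PWK 28 the shares were 35.1% ± 2.85 and 41.3% ± 2.39. These shares were not tested. The log2 ratio of *Mt1* to *Mt3* was higher in KI than in WT hippocampus at PWK 14, 0.40 ± 0.31 against -0.13 ± 0.14, a difference of 0.53. It was also higher at PWK 28 in hippocampus, by 0.18, and lower in cortex at PWK 28, -0.54 ± 0.24 against -0.15 ± 0.15, a difference of -0.40. In each of these 3 comparisons the groups did not overlap and the 2-sided exact permutation p was 0.0286, the smallest that 4 against 4 libraries allow, or 0.0762 adjusted over the 8 region and age comparisons. None of the 8 therefore passed the threshold after adjustment, and the other 5 had exact p between 0.171 and 0.771. With the sum of *Mt1* and *Mt2* in place of *Mt1*, the hippocampal difference at PWK 28 was 0.069 with overlapping groups (exact permutation p = 0.457), while the other 2 kept their direction and stayed apart. Leaving out the PWK 14 hippocampus of KI replicate 1 brought the *Mt1* to *Mt3* difference there to its lowest leave-one-out value, 0.39.

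**Figure D3:**
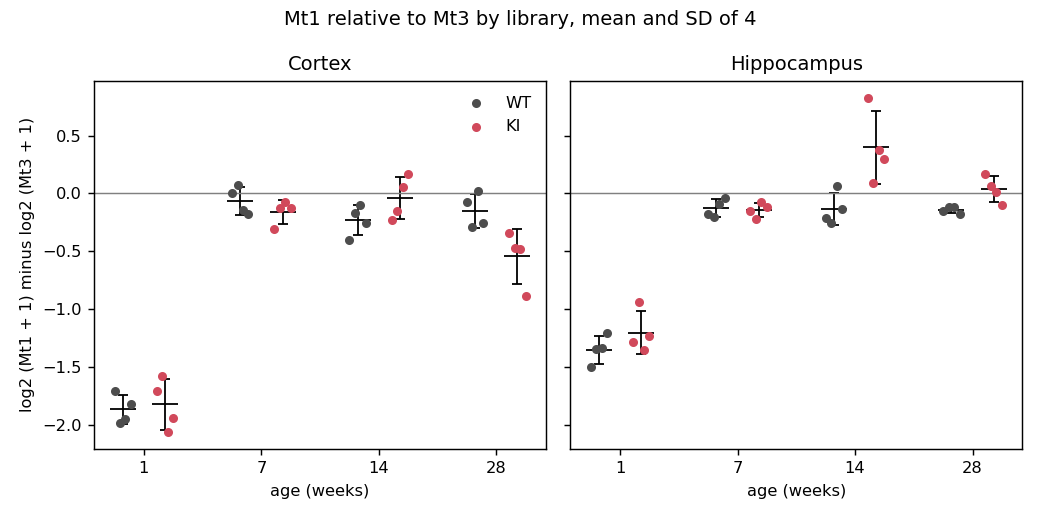
Log2(Mt1 + 1) minus log2(Mt3 + 1) of normalized counts in each library (y axis) by age in PWK (x axis), for cortex and hippocampus, KI and WT, with lines at the group means. KI points lie above all WT points in hippocampus at PWK 14 and 28 and below them in cortex at PWK 28.

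The summed astrocyte markers were higher in every KI than in any WT hippocampus library at PWK 14 and 28. The single markers did not all move this way, and *Mt2* and *Slc39a14* were not called in hippocampus at PWK 28. In bulk tissue more RNA per cell and more cells of a type cannot be told apart. In hippocampus at PWK 14 the 9 astrocyte markers summed to 236018 to 332963 normalized counts in KI and 163616 to 191410 in WT, 2 of 9 were called, both higher, and *Gfap* stood at 40059 to 131431 against 7502 to 9231. Without KI replicate 1, 4 of the 9 astrocyte and 2 of the 8 microglial markers were called higher, where 17.4% of all genes were called. The astrocyte markers *Slc1a3* (-0.19) and *Gja1* (-0.28) were then lower without a call. *Aldoc* (0.0091) and *Sox9* (0.10) differed little. At PWK 28 in hippocampus the astrocyte sum was 223214 to 259049 in KI and 162541 to 174230 in WT, with 5 of 9 called higher, and 6 of 8 microglial markers were called higher, their sum being 14160.1 to 16711 against 11564 to 12551. In cortex at PWK 28, where *Mt2* was lower in KI, the astrocyte sum overlapped between KI (160070 to 180964) and WT (149881 to 176808), 2 of 9 were called higher and 2 lower, and *Gfap* was at 5846 to 14031 against 2553 to 4062. The shares of all genes called were 15.6% and 15.8% in hippocampus at PWK 14 and 28, and 22.2% in cortex at PWK 28. Choroid plexus markers ranged in hippocampus at PWK 14 from 1912 to 99275 in KI and from 2075 to 105330 in WT. The part of these cell types in the metallothionein differences was not tested.

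Among the transporters, the importer *Slc39a14* and the exporter *Slc30a10* differed by genotype in hippocampus at PWK 14, in opposite directions. *Slc39a14* was at 2306, 1663, 1861 and 1581 normalized counts in KI and 1046, 1147, 1112 and 1178 in WT. The groups did not overlap, and it rose by 0.71 (SE 0.11, adjusted p = 0.00384), or 1.64-fold, and by 0.60, adjusted p = 0.000993 without KI replicate 1. At PWK 28 its difference in hippocampus was 0.073, SE 0.098, adjusted p = 0.668, while the cortex gave 0.045, SE 0.12, adjusted p = 0.876 at PWK 14 and, at the later age, 0.12, SE 0.088, adjusted p = 0.371. The rise of this inflammation-induced gene was thus called at PWK 14 in hippocampus alone of the 8 comparisons.

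*Slc30a10*, the manganese exporter, had lower KI than WT means at PWK 14 and 28 in both regions, and was called in 3 of those 4 comparisons. In hippocampus at PWK 14 it was at 386, 588, 520.3 and 609 normalized counts in KI and 768, 748, 698 and 828 in WT, and fell by 0.55 (SE 0.14, adjusted p = 0.027). Without KI replicate 1 the difference was -0.41, adjusted p = 0.0122, and the call was lost without KI replicate 3 or WT replicate 1, 2 or 4 (adjusted p between 0.0562 and 0.0796). At PWK 28 in hippocampus it was at 554, 574, 646 and 525 in KI and 755, 689.7, 779 and 699.6 in WT, and fell by 0.35 (SE 0.079, adjusted p = 0.0127). The groups were apart at both ages. In hippocampus at PWK 14, 3 of 4 CA1 pyramidal neuron markers and 2 of 6 excitatory neuron markers were called lower and none higher (3 of 4 lower, and 3 lower and 1 higher of 6, without KI replicate 1). The share of all genes called there was 15.6%, and 17.4% without that library. The CA1 markers summed to 7588 to 11518 in KI and 10587 to 11447 in WT, and the excitatory markers to 125646 to 205678 and 183398 to 237942; their part in the difference was not tested. The cortex libraries at PWK 14 were at 493, 554, 594 and 585 in KI and 741, 683, 661 and 769.6 in WT, again apart, and the gene fell by 0.36 (adjusted p = 0.0338), a call kept only without KI replicate 3 or 4 among the 8 removals of 1 library (adjusted p up to 0.106). At PWK 28 in cortex the difference was -0.38, SE 0.15, adjusted p = 0.0941, with 501, 505, 667 and 374 in KI and 694, 612, 693 and 615 in WT, where KI replicate 3 lay inside the WT range and the difference was -0.52 (adjusted p = 0.0212) without it.

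*Slc30a3*, which fills synaptic vesicles with zinc, was lower in KI cortex at PWK 28 and not called in hippocampus. In cortex at PWK 28 it was at 2064, 3330.3, 2022 and 2055 normalized counts in KI and 3649, 3908, 3557 and 3537 in WT. It fell by 0.66 (SE 0.14, adjusted p = 0.00846), with no overlap. KI replicate 2 stood well above the other 3 KI libraries and still below every WT library. In hippocampus the difference was -0.0013, SE 0.10, adjusted p = 0.995 at PWK 28, after 0.038, SE 0.13, adjusted p = 0.867 at PWK 14. The 95% interval at PWK 28 in hippocampus was -0.22 to 0.22. The direct test of the difference between regions at PWK 28, given below, did not pass for this gene. The cortical difference at PWK 14 was -0.21, SE 0.099, adjusted p = 0.252, and -0.32 (adjusted p = 0.0368) without KI replicate 3. Of 8 other glutamatergic vesicle genes tested in cortex at PWK 28, 3 were called higher and 1 lower, led by the vesicular glutamate transporter genes *Slc17a7* (log2 difference 0.89, SE 0.098, adjusted p = 0.000367) and *Slc17a6* (log2 difference -0.84, SE 0.16, adjusted p = 0.00461). The share of all genes called there was 22.2%. Of the 6 cortical layer markers 1 was called higher and 3 lower in cortex at PWK 28, with sums of 10004 to 15278 in KI and 15080.3 to 16276 in WT; their part in the difference was not tested.

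*Slc30a1*, the MTF1-regulated zinc exporter, had KI means above WT at PWK 14 that did not pass the test with all libraries. In hippocampus it was at 966, 1219, 1627 and 1268 normalized counts in KI and 859, 934, 1004 and 951 in WT (log2 difference 0.42, SE 0.14, adjusted p = 0.0689), and KI replicate 1, the highest for the metallothioneins, was the lowest KI library for this gene. Without that library the difference was 0.54, adjusted p = 0.00788. The cortex libraries at PWK 14 were at 1101, 1051, 1285 and 1109 in KI and 867, 979.7, 1012 and 853 in WT, which did not overlap (log2 difference 0.29, SE 0.083, adjusted p = 0.0715). At PWK 28 the KI libraries spread widely, over 868 to 1470.0 in cortex and 905 to 1314 in hippocampus against 919 to 1180.5 and 920.0 to 1075 in WT. The differences were 0.18, SE 0.16, adjusted p = 0.446 in cortex and 0.19, SE 0.11, adjusted p = 0.303 in hippocampus.

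**Figure D4:**
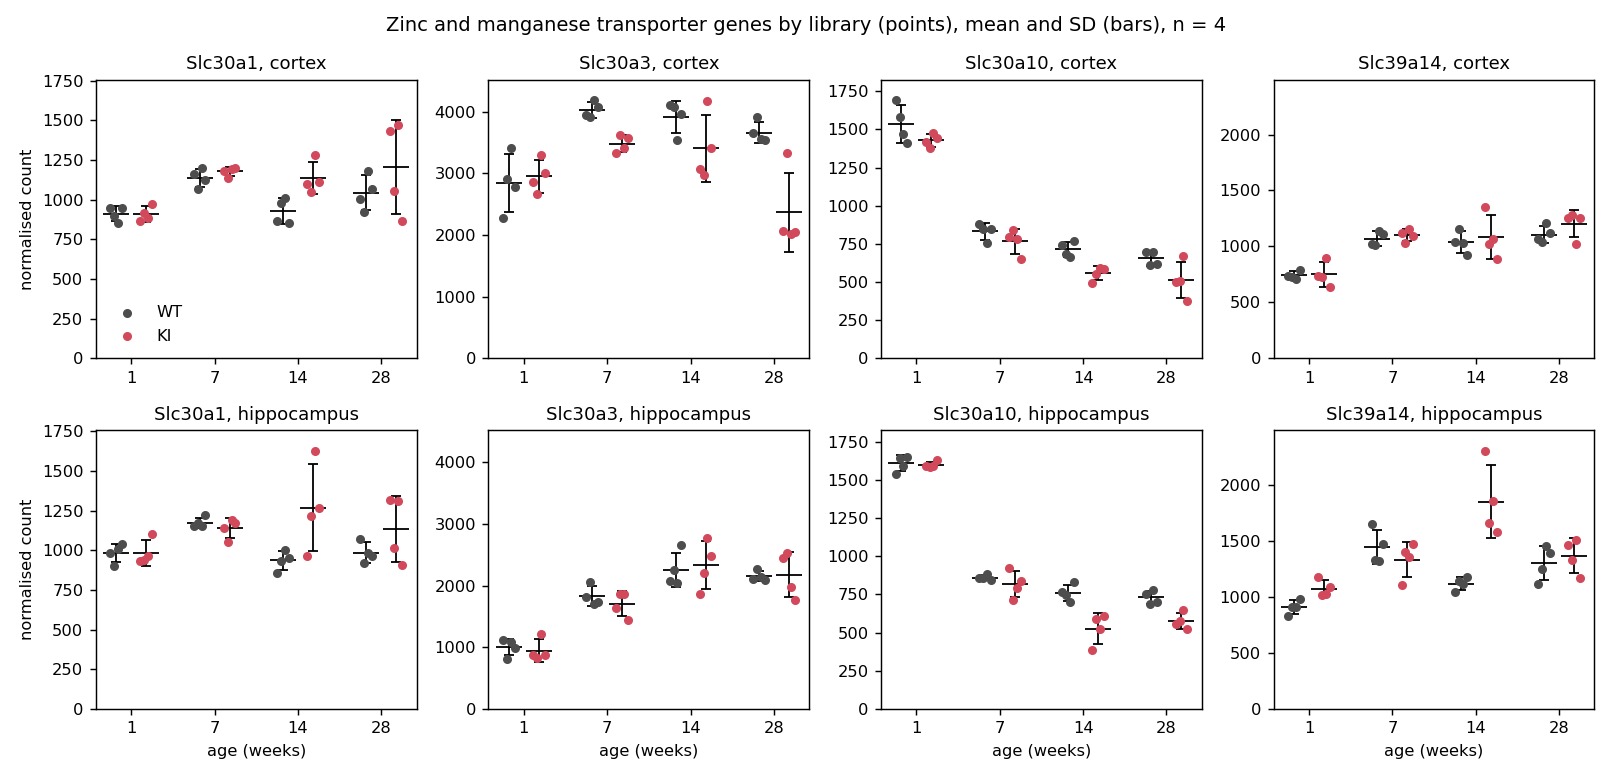
Normalized counts (y axis, from 0) of Slc30a1, Slc30a3, Slc30a10 and Slc39a14 in each library by age in PWK (x axis), cortex above and hippocampus below, KI and WT side by side with lines at the group means. Slc30a3 in cortex at PWK 28 and Slc30a10 in hippocampus at PWK 14 and 28 have KI points below all WT points, and Slc39a14 in hippocampus at PWK 14 has KI points above them.

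Whether the genotype difference depended on region was tested directly as the KI difference in hippocampus minus that in cortex, in a fit that treated the libraries of both regions as separate. Of all genes, 0%, 0.00543%, 2.85% and 4.57% were called at PWK 1, 7, 14 and 28. No member was called at PWK 1 or 7, where 0 of the 7 had an unadjusted p under 0.05 at either age. The shares of all genes with such a p were 3.63% and 5.81%. At PWK 14 *Slc39a14* was called, with a KI difference larger in hippocampus by 0.67, SE 0.17, adjusted p = 0.0499, at the edge of the threshold and kept, of 16 fits without 1 library, only without cortex KI replicate 1 or hippocampus KI replicate 2 or 4. The corresponding values were 1.09, SE 0.37, adjusted p = 0.123 for *Mt2* and 0.66, SE 0.31, adjusted p = 0.281 for *Mt1*. Without hippocampus KI replicate 1 *Mt2* was called, at 0.70 (adjusted p = 0.0320). It was also called without hippocampus KI replicate 2, at 1.30 (adjusted p = 0.0476). At PWK 28 *Mt1* was called, at 0.60, SE 0.15, adjusted p = 0.0292, its KI difference being 0.36 in hippocampus and -0.24 in cortex. This call was lost without cortex WT replicate 1 or 3, hippocampus KI replicate 1 or 2, or hippocampus WT replicate 1, 2 or 4 (adjusted p between 0.0542 and 0.0682). The values of *Mt2* (0.70, SE 0.24, adjusted p = 0.104) and *Slc30a3* (0.66, SE 0.19, adjusted p = 0.0581) did not pass the test. With the replicate number as a block at PWK 28, 3 members were called, *Mt2* (adjusted p = 0.00705) and *Slc30a3* (adjusted p = 0.00830) beside *Mt1*. For *Slc30a10* the difference between regions was -0.19, SE 0.17, adjusted p = 0.588 at PWK 14, and at the later age 0.031, SE 0.18, adjusted p = 0.956.

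Whether it depended on age was tested in the same way, and the comparisons of PWK 14 with 7 and of PWK 28 with 14 share the PWK 14 libraries. In hippocampus the KI difference was larger at PWK 14 than at PWK 7 for 3 of the 7 members, where 10.3% of genes were called. The change was 1.48, SE 0.35, adjusted p = 0.0142 for *Mt2*, 1.00, SE 0.30, adjusted p = 0.0447 for *Mt1* and 0.83, SE 0.16, adjusted p = 0.00357 for *Slc39a14*. Without the PWK 14 hippocampus of KI replicate 1 *Slc30a1* was called as well, at 0.58 (adjusted p = 0.00416), and the call of *Mt1* was kept in 3 of the 16 fits that each left out 1 library, those without PWK 14 KI replicate 1, 2 or 4, with adjusted p up to 0.0829 in the rest. In cortex 3.18% of genes and none of the members were called for this change. An unadjusted p under 0.05 was found for 3 members and 16.7% of all genes. From PWK 14 to PWK 28 the percentages were 0% in cortex and 0% in hippocampus, and no member was called. At an unadjusted p under 0.05 were 15.1% and 12.4% of all genes, and 3 and 2 of the members. The largest of these were *Mt2* in hippocampus (log2 difference -1.15, SE 0.37, adjusted p = 0.22) and *Mt2* in cortex (log2 difference -0.76, SE 0.24, adjusted p = 0.159).

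**Figure D5:**
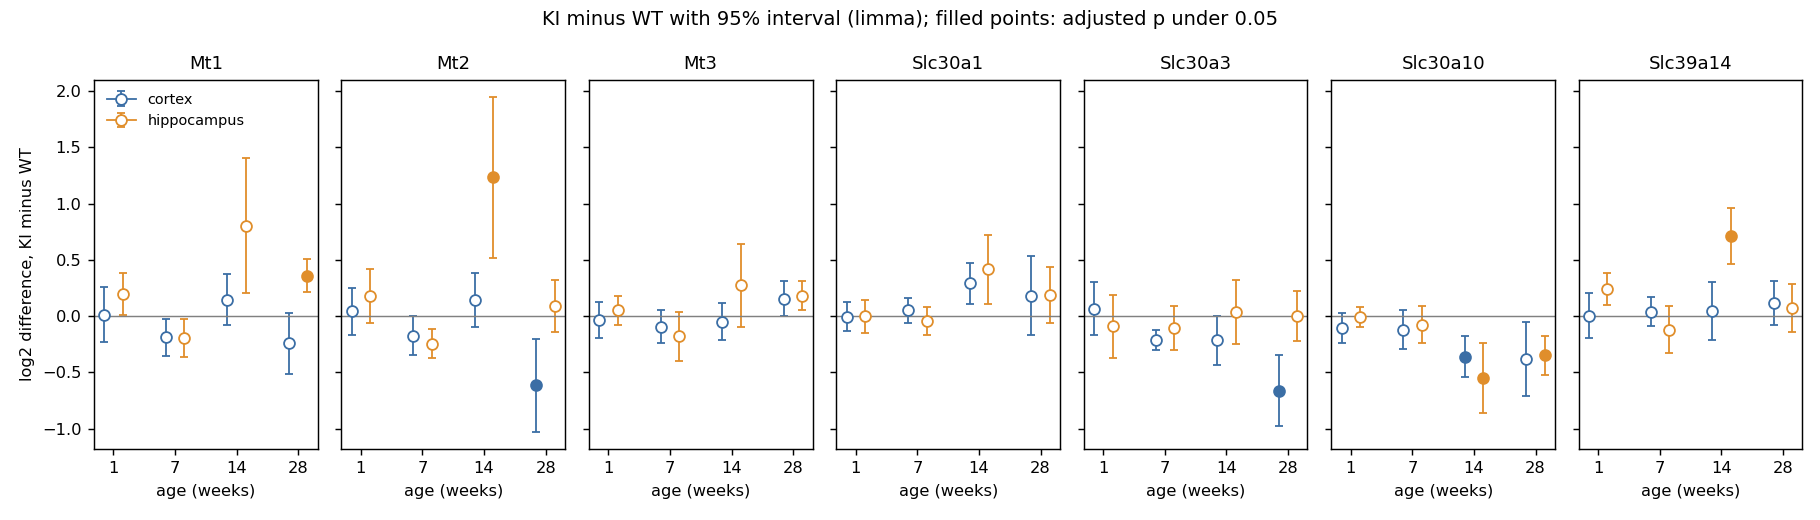
KI minus WT log2 difference of each of the 7 genes (one panel each) by age in PWK (x axis) for cortex and hippocampus, with 95% intervals from limma; filled points have an adjusted p under 0.05. The points of PWK 1 and 7 are all open, Mt2 in hippocampus reaches 1.23 at PWK 14, and Slc30a3 in cortex reaches -0.66 at PWK 28.

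The remaining genes of zinc transport gave few calls at PWK 14 and more at PWK 28. Over all genes, 5.18% were called in cortex at PWK 14 and 22.2% at PWK 28, so calls rose there in general. In hippocampus the shares of all genes were 15.6% (17.4% without KI replicate 1) and 15.8%. Of 20 further SLC30 and SLC39 genes 18 were in the table. None was called in cortex at PWK 14, although 6 had an unadjusted p under 0.05, as had 20.6% of all genes. At PWK 28 in cortex 5 were called higher and 1 lower. In hippocampus 2 were called lower at PWK 14 (with 1 higher as well without KI replicate 1), and 6 higher and 2 lower at PWK 28. The list medians were -0.012, 0.021, 0.033 and 0.14 on the log2 scale in cortex and then hippocampus, against medians of all genes between -0.0034 and 0.006. *Slc39a2*, a zinc importer, was the most reduced, with log2 difference -1.01, SE 0.18, adjusted p = 0.00305 in cortex at PWK 28, and in hippocampus -0.82 at PWK 14 and -0.87 at PWK 28. *Slc39a3* fell in hippocampus, by 0.33 at PWK 14 and 0.27 at PWK 28. *Slc39a8*, the closest relative of *Slc39a14*, rose at PWK 28, by 0.84 in cortex and 0.72 in hippocampus, and *Slc39a11* rose by 0.52 in cortex and *Slc39a6* by 0.50 and 0.39. Of 6 tested genes of zinc sensing and handling, among them the metal-sensing factor *Mtf1*, only *S100b* was called, higher in hippocampus at PWK 14 (log2 difference 0.22, SE 0.067, adjusted p = 0.0489) and PWK 28 (0.43). Its call at PWK 14 was lost without KI replicate 1 (adjusted p = 0.063), and *S100b* is also an astrocyte gene. In cortex none of the 6 was called, although 2 at PWK 14 and 1 at PWK 28 had an unadjusted p under 0.05, against 20.6% and 35.5% of all genes.

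Genes of copper, iron and manganese handling gave 0 to 2 calls in a comparison. The share of all genes called was 5.18% and 22.2% in cortex at PWK 14 and 28. In hippocampus it was 15.6% (17.4% without KI replicate 1) and 15.8%. None of the 9 copper genes was called by limma in either region at PWK 14 or 28, with 0, 0, 1 and 0 at an unadjusted p under 0.05 in cortex and then hippocampus. The shares of all genes at such a p were 20.6%, 35.5%, 31.4% and 30.4% in that order. Of 11 iron and manganese genes tested, 2 were lower in the PWK 28 cortex, the transferrin gene *Trf* (log2 difference -0.55, SE 0.18, adjusted p = 0.0483) and the ferritin heavy chain gene *Fth1* (-0.28). In hippocampus at PWK 28, 2 were higher, the transferrin receptor gene *Tfrc* (log2 difference 0.42, SE 0.071, adjusted p = 0.00265) and the ferritin light chain gene *Ftl1* (0.22). At PWK 14 none was called, with 2 and 1 at an unadjusted p under 0.05 in cortex and hippocampus, and 1 was called higher in hippocampus without KI replicate 1.

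Genes of the pathways known to induce metallothioneins were read beside them, and their part in the metallothionein differences was not tested. The share of all genes called was 5.18% and 22.2% in cortex at PWK 14 and 28. In hippocampus it was 15.6% (17.4% without KI replicate 1) and 15.8%. Of 12 oxidative stress genes of the Nrf2 pathway, 2 and 4 were called higher in cortex at the 2 later ages, 2 and 3 in hippocampus, and none lower; without KI replicate 1, 3 were higher and 1 lower in hippocampus at PWK 14. *Hmox1*, the haem oxygenase gene, rose in all 4 comparisons, by 0.88 and 0.65 in cortex and 1.34 and 0.57 in hippocampus, and *Srxn1* by 0.56, 0.53 and 0.69 in the first 3. Of 12 genes listed as glucocorticoid-induced, the PWK 14 cortex had 2 higher and 1 lower and the PWK 28 cortex 0 higher and 6 lower. The hippocampus had 3 higher and 1 lower at PWK 14 (2 higher and 1 lower without KI replicate 1) and 1 higher and 2 lower at PWK 28. The lower gene at PWK 14 was in each case *Nr3c1*, which encodes the glucocorticoid receptor itself (log2 difference -0.35 in cortex and -0.37 in hippocampus). Among targets of the glucocorticoid receptor, *Fkbp5* rose by 0.52 in cortex at PWK 14, and in hippocampus at that age it was called without KI replicate 1 (0.42, adjusted p = 0.00157). *Sgk1* rose by 0.64 in hippocampus at PWK 14, a call lost without KI replicate 1 (adjusted p = 0.062). *Tsc22d3* fell by 0.68 in cortex and 0.57 in hippocampus at PWK 28, and *Cdkn1a*, which many stresses induce, rose by 2.40 in hippocampus at PWK 14. Of 9 tested cytokine signalling genes, 5 were called higher in hippocampus at PWK 14 and 4 at PWK 28, none lower. *Socs3*, the feedback inhibitor of STAT3, rose by 2.76 and *Osmr*, the oncostatin M receptor gene, by 2.17 at PWK 14, and by 2.18 and 1.72 without KI replicate 1, where 4 of 9 were called. In cortex at PWK 28 *Socs3* fell by 1.29 (adjusted p = 0.0242), at 27.0 to 71.2 normalized counts in KI and 55.7 to 131 in WT, which overlapped. Of the cytokine genes 1 was higher and 2 lower there. At PWK 14 in cortex 1 was higher and 1 lower. The list medians in hippocampus at PWK 14 were 0.92 for the cytokine, 0.23 for the Nrf2 and -0.0091 for the glucocorticoid genes, against 0.42 for the 7 members and 0.006 for all genes. Without KI replicate 1 those of the 3 lists were 0.63, 0.11 and -0.053. In WT at PWK 28 against 14, 9 of the 12 glucocorticoid genes were called higher and 0 lower in cortex. In WT hippocampus 9 were higher and 1 lower. The Nrf2 genes had 2 higher and 2 lower in cortex, and 1 higher and 2 lower in hippocampus. Of the cytokine genes 1 was higher in cortex, with 0 calls in hippocampus. The shares of all genes called were 12.0% and 8.11%. Their part in the WT change of *Mt1* and *Mt2* was not tested.

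The genes whose levels most resembled each member over the 64 libraries were sought among 13247 protein-coding genes with a mean of at least 50, as Pearson correlations of log2 values that also carry the age and region differences. *Mt1* was most like *Mt2* (r = 0.985), then *Sdc4* (r = 0.973) and *Clu* (r = 0.972), and *Mt3* was most like *Sdc4* (r = 0.962) and *Mt1* (r = 0.955). *Mt2* was most like *Mt1*, *Sdc4* and *Cebpa* (r = 0.957 for the last). *Slc39a14* was most like *Ddr1*, *Serpina3n* (r = 0.859) and *Mt2* (r = 0.853), and *Slc30a10* was most like *Prrt4* (r = 0.953), *Bex4* and *Fam184b*. *Slc30a3* was most like *Glcci1* (r = 0.905), *Fbxw7* and *Slc25a37*, and *Slc30a1* had the lowest match, *Ttc19* (r = 0.751), before *Galnt11* and *Armcx5*.

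The same search on the deviations from the 16 group means shows which genes varied together among libraries of one group, and the points of 2 genes share libraries. *Mt1* and *Mt2* again led each other (r = 0.923, and 0.842 without the PWK 14 hippocampus of KI replicate 1), whereas the next matches of *Mt1*, *Ctsz* (r = 0.776) and *Msn* (r = 0.775), dropped to 0.454 and 0.426 without that library. Those of *Mt2* were *Arhgap31* (r = 0.788) and *S1pr3* (r = 0.768), at 0.561 and 0.479 without it. *Mt3* varied most with *Arhgdia* (r = 0.779), *Acsbg1* and *Gpr37l1*, and without that library with *Pmm1* (r = 0.761), *Arhgdia* then being at 0.644. *Slc30a1* varied with *Etv3* (r = 0.842) and *Homer1* (r = 0.811), at 0.812 and 0.775 without the library, then with *Ccdc88c*. Without that library the immediate early gene *Egr1*, which neuronal activity induces, ranked second for *Slc30a1* (r = 0.782). *Slc30a3* varied most with *Camkk2* (r = 0.721, and 0.698 without the library), *Spata2l* and *Slc8a2*, and without it with *Npnt* (r = 0.789). *Slc30a10* varied most with *B3gat2* (r = 0.675, and 0.553 without it), *Arglu1* and *Plpp3*, and without it with *Add3* (r = 0.611). *Slc39a14* varied most with *Zfp703* (r = 0.583, and 0.493 without it), *Tor4a* and *Vcp*, and without it with *Alkbh4* (r = 0.575).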

How the data were processed

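Stranded libraries (the labels name an mRNA kit, the study's methods a total RNA kit) were sequenced from frontal cortex and hippocampus. Per the submitters' processing notes, whose versions are given here although the study's methods name others, the authors estimated transcript abundance with Salmon (0.11.2), summarised it to genes and normalized all 64 libraries together with DESeq2 (1.19.11, R 3.6.0). The deposited values are therefore normalized estimated counts, a signal corrected for depth and not whole reads; raw depth is not given in the sources used here, so no counting interval is given. A common scaling cannot show a change shared by all genes. The lowest mean of any gene was 4.25, so genes below that level were not analysed here.

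From these deposited values, log2(value + 1) was fitted with limma-trend (limma 3.58.1, R 4.3.3) over all genes with a mean of at least 1 in the libraries compared, with the Benjamini-Hochberg adjustment over all genes tested and calls at an adjusted p under 0.05. Only the libraries of a comparison entered its fit. The fit was tested on simulated data with known differences at PWK 1 alone. The comparisons simulated were KI against WT in hippocampus, the KI difference in hippocampus minus cortex, and WT hippocampus against cortex. No fit of a later age or of a change with age was simulated. The ratio of *Mt1* to *Mt3* was compared with exact 2-sided permutation tests in SciPy 1.17.1, adjusted over 8 comparisons. Other steps used pandas 2.3.3 and NumPy 2.4.6, figures matplotlib 3.10.9 and the alignments Biopython 1.88. Gene symbols, positions and lengths came from the GENCODE annotation of GRCm38, which matched 18420 of the 18432 gene IDs; levels per kilobase divide by the length of the principal protein-coding transcript, or the longest where none is marked. Promoter windows came from RefSeq (GRCm38.p6).

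The members and the lists of other genes were chosen with earlier results of these data known. Named genes were all 7 members, the 3 genes most like each member by each measure, and up to 2 called genes per direction and list with the largest log2 difference, of which the text gives those that bear on the members. Equal replicate numbers are not said to mark 1 mouse. Over 12819 genes, same-numbered cortex and hippocampus libraries deviated together in every pair in WT (r = 0.102 to 0.256) and KI (r = 0.091 to 0.317) at PWK 1. They did so in KI at PWK 28 (r = 0.239 to 0.443) and not in WT at PWK 28 (r = -0.073 to 0.047), nor in either genotype at PWK 7 or 14. KI and WT numbers did not pair at any age. The alternatives tried were other pseudocounts, filters, scalings, weights, one fit of all libraries, a GC and length correction, a replicate block and leaving out each library; the fit of hippocampus at PWK 14 without KI replicate 1 and the sum of *Mt1* and *Mt2* as 1 gene were added after seeing the data.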

Additional observations from a re-analysis of the deposited data

Results flagged for a closer look

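Of the 112 groups of 4 libraries (7 genes in 16 groups), 8 held a library far from its 3 neighbours by Dixon's test at the 95% level, where chance gives about 1 in 20. The hippocampus of KI replicate 1 at PWK 14 was the highest of its group for all 3 metallothioneins, at 10406 normalized counts for *Mt1* (next 4769.7), 9447 for *Mt2* (next 3839.5) and 5864 for *Mt3* (next 3679). The same library also held the highest *Gfap* and microglial marker levels of its group, and the part of either in its metallothionein level was not tested. For *Mt3*, cortex of WT replicate 1 at PWK 7 was low at 2468 and hippocampus of KI replicate 2 at PWK 7 was high at 3595. For *Slc30a3*, cortex of KI replicate 2 at PWK 28 was high at 3330.3 against 2022 to 2064 in the other 3 KI libraries, and hippocampus of KI replicate 3 at PWK 1 was high at 1219. For *Slc39a14*, cortex of KI replicate 3 at PWK 28 was low at 1019.

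A change of the genotype difference between regions or ages was called in 5 limma tests of members. It was larger in hippocampus than in cortex for *Slc39a14* at PWK 14, by 0.67 on the log2 scale, and for *Mt1* at PWK 28, by 0.60. It was larger at PWK 14 than at PWK 7 in hippocampus for *Mt1* (1.00), *Mt2* (1.48) and *Slc39a14* (0.83). The calls of *Mt1* in either test and of *Slc39a14* between regions were lost without some single libraries. Those of *Mt2* and *Slc39a14* between PWK 7 and 14 were kept.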

How the results depend on the processing

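Of the members' values under another setting, 3216 stayed on the same side of the threshold, 119 lost their call, 51 gained one and 0 turned. *Slc30a3* in cortex at PWK 28, *Slc39a14* in hippocampus at PWK 14, *Slc30a10* in hippocampus at PWK 28, and the changes of *Mt2* and *Slc39a14* in hippocampus from PWK 7 to 14 kept their call under every alternative tried, and *Mt1* in hippocampus at PWK 28 under all but the one fit of all 64 libraries (adjusted p = 0.0923). Counts of members called moved as follows. The one fit of all 64 libraries gave 6 in place of 3 for KI against WT in hippocampus at PWK 14, 1 in place of 2 at PWK 28, 3 in place of 1 for hippocampus minus cortex at PWK 14, 6 in place of 3 for PWK 14 minus 7 and 2 in place of 0 for PWK 28 minus 14 in hippocampus, and for WT 0 in place of 2 (PWK 14 against 7, cortex), 1 in place of 2 (PWK 28 against 14, cortex) and 1 in place of 3 (PWK 14 against 7, hippocampus). Sample quality weights gave 5 in place of 3 in hippocampus at PWK 14, 2 in place of 1 for hippocampus minus cortex at PWK 28, 1 in place of 0 for PWK 28 minus 14 in cortex and 5 in place of 3 for PWK 14 minus 7 in hippocampus. With no filter on low values the count was 1 in place of 2 in cortex at PWK 28 and 0 in place of 1 for hippocampus minus cortex at PWK 14, and total-sum scaling and the GC and length correction also gave 0 there. The replicate block gave 3 in place of 1 for hippocampus minus cortex at PWK 28, where the numbers paired the regions in KI and not in WT. Where the numbers did not pair the samples, it gave 0 in place of 1 in cortex at PWK 14, 1 in place of 2 for WT PWK 28 against 14 in cortex and 1 in place of 3 for WT PWK 14 against 7 in hippocampus. For WT hippocampus against cortex at PWK 1, whose numbers paired, it changed no call. The causes were not tested.

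Leaving out each library in turn gave 0 members called for KI against WT at PWK 1 and 7 in both regions, 0 to 2 and 1 to 2 in cortex at PWK 14 and 28, and 1 to 5 and 2 to 3 in hippocampus. For hippocampus minus cortex the counts were 0 at PWK 1 and 7 and 0 to 2 at PWK 14 and 28. For PWK 14 minus 7 they were 0 in cortex and 2 to 4 in hippocampus, and for PWK 28 minus 14 they were 0 to 1 in both. In WT they were 7 in both regions for PWK 7 against 1, 0 to 2 in both for PWK 14 against 7, 1 to 3 in cortex and 2 to 3 in hippocampus for PWK 28 against 14, and 5, 3 to 5, 4 and 4 to 5 for hippocampus against cortex by age. The KI minus WT difference of the *Mt1* to *Mt3* log2 ratio ranged in cortex from -0.037 to 0.13, -0.13 to -0.044, 0.13 to 0.26 and -0.47 to -0.28, and in hippocampus from 0.060 to 0.20, -0.041 to 0.015, 0.39 to 0.63 and 0.13 to 0.22, at PWK 1, 7, 14 and 28.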

Other observations

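In WT tissue 4 zinc transporters outside the 7 genes were higher and 7 lower of 18 tested at PWK 7 than at PWK 1 in cortex and 4 higher and 8 lower in hippocampus, where 65.3% and 61.3% of all genes were called. From PWK 14 to 28, 0 were higher and 3 lower in cortex and 1 higher and 2 lower in hippocampus, against 12.0% and 8.11% of all genes. Between regions, 3, 3, 4 and 7 of the 18 were higher in hippocampus at PWK 1, 7, 14 and 28, and 3, 3, 2 and 2 lower. The shares of all genes called were 34.7%, 40.8%, 34.6% and 37.8%.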
